A study of Mus musculus with 22 samples.

Results

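The livers described here came from 11 female mice, 5 fed ad libitum (AL) and 6 kept on calorie restriction (CR), with 1 RNA-seq library per mouse. They were chosen by the sex and diet given in the sample labels, and make up 11 of the 22 libraries of the series. The other 11 libraries came from males, 6 AL and 5 CR, and were used to set the female response beside the male one. All mice were wild-type, individually housed C57BL/6NCrl animals, an inbred strain, and the diets ran from 9 to 13 weeks of age. AL females ate a control diet freely, and CR females received 70% of the AL intake as a single ration each morning, which they finished within hours. The ration was of another formula than the AL diet, so amount, composition and timing of food cannot be told apart. All mice were fasted for about 8 hours before the livers were taken, and the stage of the oestrous cycle was not given. The study asked whether CR acts differently in females and males, and the question here is which hepatic transcripts differed between CR and AL females.

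The liver makes and secretes cholesterol, fatty acids, bile acids and glucose, and it switches between storing and releasing fuel as food comes and goes. Its genes follow a circadian clock in which ARNTL and CLOCK drive the PER and CRY repressors, which in turn shut ARNTL and CLOCK off, and in liver the phase of this loop follows feeding time. SREBP factors switch on sterol and fatty acid synthesis when cells sense low sterol or high insulin. The pattern of growth hormone pulses sets many liver genes at different levels in males and females.

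The number of gene reads recovered ran from 34659972 to 37309166 among the 10 female libraries in which the recovery could be checked. Hepatocyte markers (11 genes) made up 14.0 to 23.2% of the normalised total in AL and 17.5 to 19.3% in CR females, with no member called, and no hepatocyte marker was at 0. Of 12 pericentral markers none was called, and of 12 periportal markers 2 were called lower, Hal and Cyp2f2. Pancreatic acinar markers (45 genes) took 13.3% of the total in AL replicate 1 and 2.27% in CR replicate 5, against 0.0124 to 0.485% in the other 9 libraries. None of the 42 acinar markers tested was called between the diets. Skeletal muscle markers stood highest in CR replicate 6, at 0.0456%, and keratinised epithelium markers in AL replicate 2, at 0.00117%. Among the lists for macrophages, lymphocytes, neutrophils, endothelium, stellate cells, cholangiocytes, erythroid cells, adipocytes and islets, the only called gene was Lrat in the stellate list. The summed share of the 8 endothelial markers ran from 0.0229 to 0.0328% in AL and from 0.0309 to 0.0386% in CR females, and that of 5 cholangiocyte markers from 0.00172 to 0.00231% and from 0.00220 to 0.00297%, both with overlapping groups. Both groups were bulk tissue, in which fewer cells of a type and less RNA per cell cannot be told apart.

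Of 14035 genes tested, 758 were called between CR and AL females (5.40%), 439 of them higher (3.13%) and 319 lower (2.27%) with CR. A gene was called when its fold change exceeded 1.5 and its adjusted p was below 0.05 in limma. Fold changes here are on the log2(value + 1) scale, where the value is a normalised read count, and the median over all genes tested was -0.01. The values of the 2 groups did not overlap for 465 of the called genes, and for 6.28% of all genes tested. Without AL replicate 1 and CR replicate 5, the libraries with pancreatic transcripts, 813 genes were called, and 639 of the 758 were among them. The shares of called members were largest, by list, in the clock, cholesterol synthesis and fatty acid synthesis lists. No member was called of the lists for gluconeogenesis (10 genes tested), oxidative phosphorylation (70), NRF2 targets (14), ER chaperones (24), autophagy and lysosome (23), iron and haem (15) or interferon and antigen presentation (32). In those 7 lists, 1 member of gluconeogenesis, 2 of oxidative phosphorylation, 3 of NRF2 targets, 1 of ER chaperones, 9 of autophagy, 2 of iron and haem and 3 of interferon had an unadjusted p below 0.05, against 21.9% of all genes tested.

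**Figure D1:**
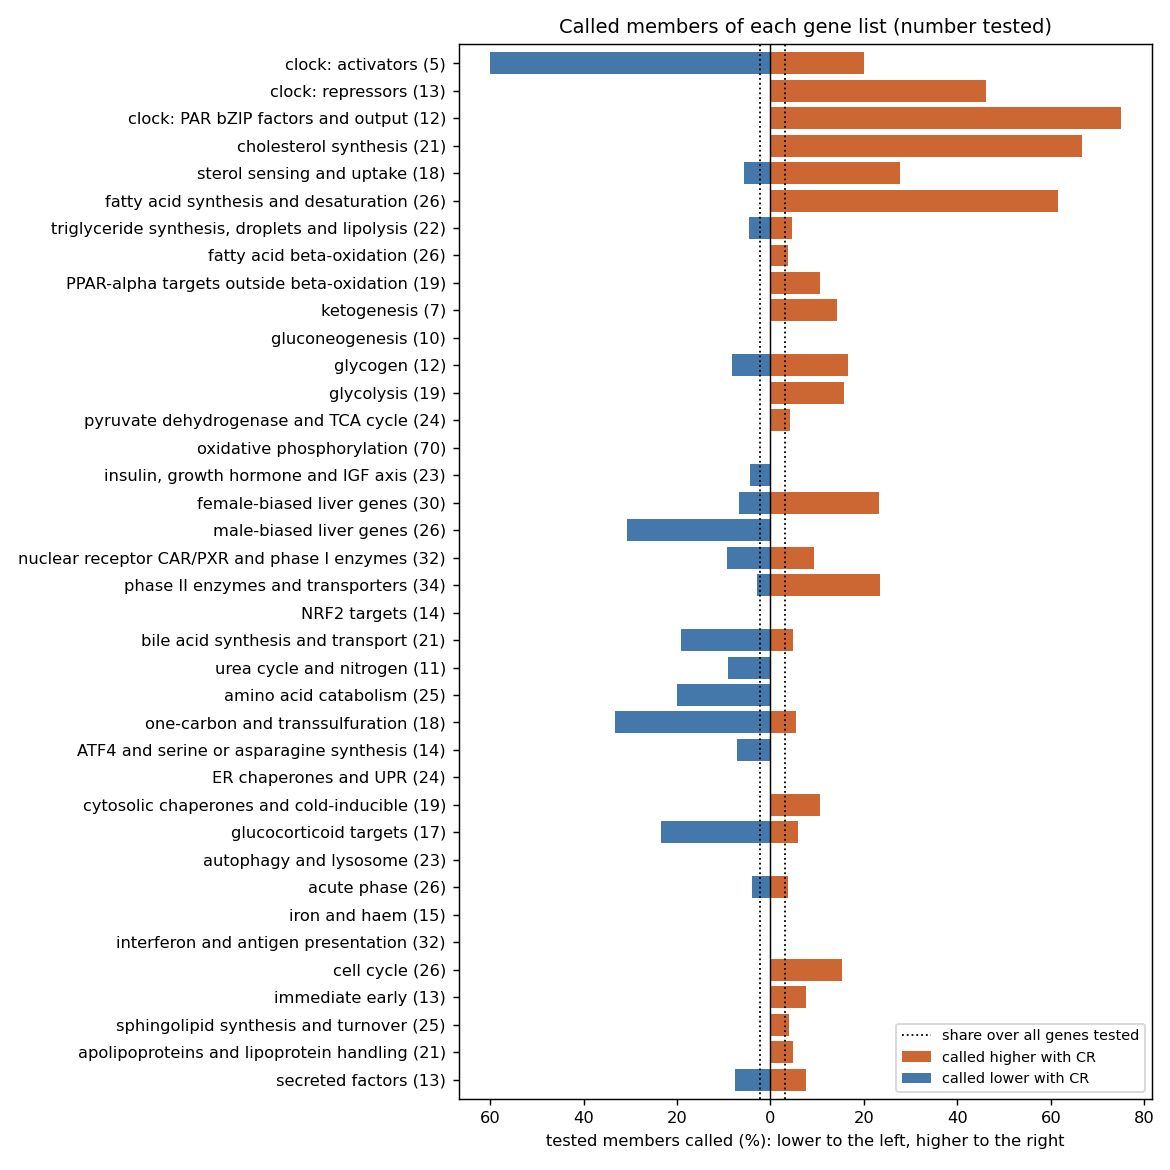
Horizontal bars give, for each of the 38 gene lists, the percentage of tested members called lower (left, blue) and higher (right, orange) in CR than in AL female livers, with the number tested in brackets and dotted lines at the shares over all genes tested, 2.27% and 3.13%. The longest bars to the right belong to the clock output list (9 of 12), cholesterol synthesis (14 of 21) and fatty acid synthesis (16 of 26).

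Clock genes changed in both directions. Of the 5 activators tested, 3 fell and 1 rose, of the 13 repressors 6 rose, and of the 12 PAR bZIP factors and output genes 9 rose. The medians of these lists were -1.15, 0.80 and 1.45 on the log2 scale, beside -0.01 over all genes. Arntl, which encodes the BMAL1 activator, stood at 250, 167, 686, 674 and 417 normalised counts in AL replicates 1 to 5. In CR females Arntl ran from 19.1 to 89.6 with a median of 56.1. Every CR liver was thus below every AL liver, and the log2 fold change was -3.02 ± 0.472 (SE, adjusted p = 0.000177). Npas2, a partner of BMAL1 that can replace CLOCK, read 79.0, 28.6, 581, 199 and 88.6 in AL females and 1.88 to 10.6 in CR females, a log2 fold change of -3.98. Clock itself fell by 1.15 on the log2 scale, and its groups did not overlap either.

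The period genes, which encode the repressors, were higher with CR. Per2 read 187.2, 364.6, 105.4, 103 and 167 in AL females, and 1157 to 1827 with a median of 1518 in CR females. The Per2 groups were far apart, at a log2 fold change of 3.16 with an SE of 0.346 (adjusted p = 3.15e-06). Per3 stood at 113, 447, 22.4, 24.2 and 100 in AL and at 792 to 1078 in CR females (log2 fold change 3.55, adjusted p = 0.00135). AL replicate 2 was the highest and replicates 3 and 4 the lowest of the AL group for Per3. Per1, the period gene that responds fastest to outside signals, overlapped between the groups and was not called (log2 fold change 0.60, 95% interval 0.12 to 1.08, adjusted p = 0.123). Smaller rises were called for Bhlhe40 (1.17), Nr1d2 (1.03), Cry1 (0.85) and Cry2 (0.80), of which Bhlhe40 alone had groups without overlap. The call of Cry2 was lost under 8 of 34 alternative settings, 6 of which left out a single female library, with an adjusted p of up to 0.0955 without AL replicate 4. That of Nr1d2 was lost in edgeR (adjusted p = 0.0526). Nr1d1, which encodes REV-ERB alpha, a repressor of Arntl, read 4413, 7116, 1176, 985 and 2839 in AL and 803 to 2244 in CR females. Its log2 fold change of -0.76 was not called (adjusted p = 0.264), but edgeR and DESeq2 on the recovered reads, which leave out AL replicate 4, called it lower (adjusted p = 0.0263 and 0.00346). It overlaps Thra on the genome, and reads of the overlap cannot be told apart if the counting ignored strand.

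Among the output genes, the PAR bZIP factor Dbp read 575, 1974, 42.9, 26.3 and 239 in AL females and 2209 to 3670 with a median of 2515 in CR females. No CR liver reached down to the highest AL liver, and the log2 fold change was 3.69 ± 0.927 (SE, adjusted p = 0.0131). The call was lost in edgeR and DESeq2, which gave 1.89 and 1.90 with adjusted p of 0.218 and 0.158, and also without AL replicate 4. Tef, a second PAR bZIP factor, read 2222, 2940, 742, 700 and 1429 in AL and 4166 to 5973 in CR females (log2 fold change 1.81). Hlf, the other such factor, rose by 0.89. Wee1, a kinase that holds back mitosis and is driven by the clock, read 69.7, 99.3, 26.1, 20.2 and 31.3 in AL and 420 to 654 in CR females (log2 fold change 3.70, adjusted p = 3.60e-06). Usp2, a deubiquitinase, rose by 2.34. Nampt, the rate-limiting enzyme of NAD salvage, read 1073 to 1171 in AL and 2348 to 4125 in CR females, and rose by 1.51. Noct and Nfil3 overlapped and were not called, with log2 fold changes of 0.75 and -0.96 (adjusted p = 0.265 and 0.145).

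Several clock repressors and output genes spread more widely among AL than among CR females. The highest AL value of Dbp was 75.2 times the lowest, against 1.66 times in CR females, and the ratios were 19.95 and 1.36 for Per3, 11.7 and 2.05 for Ciart, 7.22 and 2.79 for Nr1d1 and 5.84 and 1.19 for Usp2. The SD of the log2 values was larger in AL than in CR females for 2 of 5 activators, 10 of 13 repressors and 9 of 12 output genes, beside 50.9% of all genes tested. By the ratio of highest to lowest, Arntl, Clock, Nampt and Nfil3 were wider in CR females, at 4.11 in AL and 4.70 in CR females for Arntl and at 1.09 and 1.76 for Nampt. In AL replicate 2 Arntl and Npas2 were lowest and Dbp, Per3, Wee1 and Tef highest, while replicates 3 and 4 showed the opposite order. The hour at which each liver was taken was not given, and with 1 sample per mouse a shift in clock phase and a change in level cannot be told apart.

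**Figure D2:**
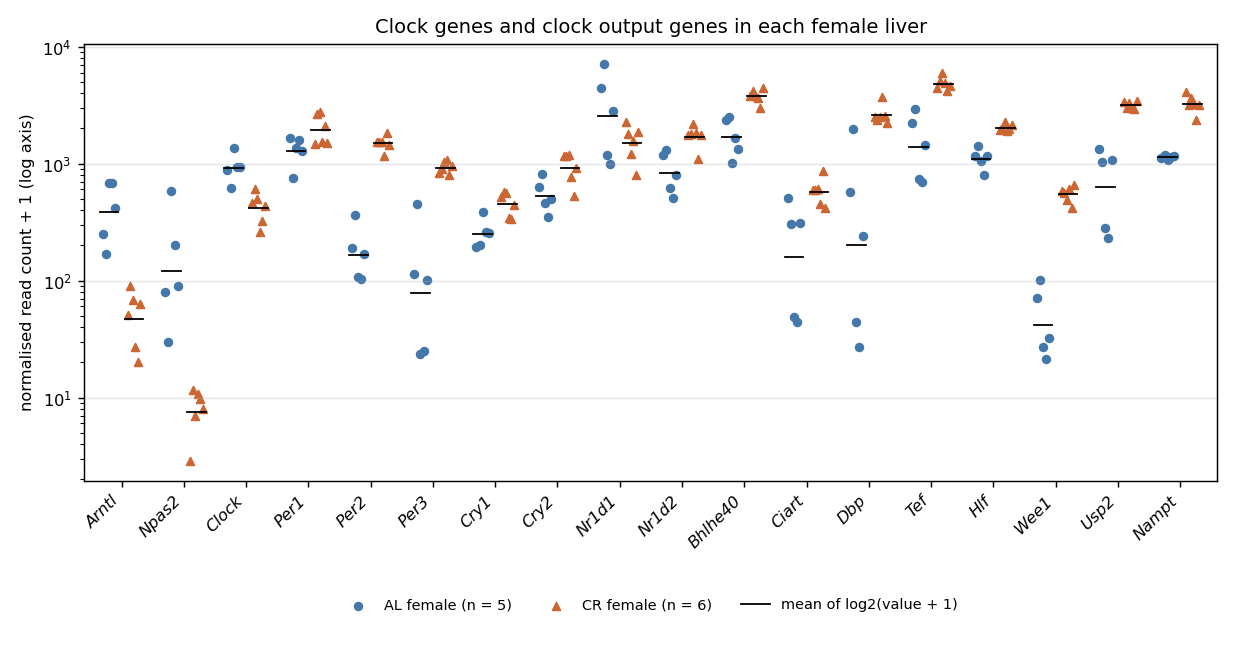
Each symbol is the normalised read count plus 1 (log axis) of a clock or clock output gene in 1 female liver, blue circles for the 5 AL and orange triangles for the 6 CR females, with black bars at the mean of log2(value + 1). AL values of Dbp run from 26.3 to 1974 while CR values stay between 2209 and 3670, and for Per2, Wee1, Usp2 and Nampt all triangles lie above all circles.

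Promoter sequences of called clock genes are shown because the clock factors bind short known motifs, the E-box CACGTG for BMAL1 and CLOCK and the D-box TTATGNAA for the PAR bZIP factors. RefSeq promoters (GRCm38.p6) were found for 11 of the 16 clock list members called higher. In the 250 bases before the start, on either strand, 4 of these 11 held an E-box (Coq10b, Cry1, Tef, Tspan4) and 2 a D-box (Coq10b, Per3), beside 6.02% and 3.07% of the 32851 promoter windows of the table. The ROR element, searched on both strands, was in none of the 11 and in 0.493% of all windows. A gene was counted if any of its starts had a match, while the shares of all promoters are per window. These measures are thus not alike. A match describes letters only, not binding. In the sequences below, read 5′ to 3′ on the gene's strand and ending at the base before the start, capitals mark D-boxes and E-boxes. They stand 205 and 158 bases before the start of Per3 (chr4:151044666-151044915, minus strand), 127 bases before 1 of 2 starts of Tef (chr15:81802423-81802672, plus strand) and 60 bases before that of Cry1 (chr10:85185055-85185304, minus strand). The Per3 window reaches into the gene as annotated, whose 5′ end is at 151044707, so the distances for Per3 depend on the start used.
Per3: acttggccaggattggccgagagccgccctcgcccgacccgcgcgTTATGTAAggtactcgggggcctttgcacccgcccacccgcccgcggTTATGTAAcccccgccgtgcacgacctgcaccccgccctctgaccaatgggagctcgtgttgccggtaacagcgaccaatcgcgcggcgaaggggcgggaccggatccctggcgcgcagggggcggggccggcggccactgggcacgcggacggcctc
Tef: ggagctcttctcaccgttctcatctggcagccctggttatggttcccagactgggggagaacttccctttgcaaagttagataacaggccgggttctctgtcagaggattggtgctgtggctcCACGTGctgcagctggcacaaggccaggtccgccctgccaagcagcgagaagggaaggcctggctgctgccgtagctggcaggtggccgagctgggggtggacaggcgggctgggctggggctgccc
Cry1: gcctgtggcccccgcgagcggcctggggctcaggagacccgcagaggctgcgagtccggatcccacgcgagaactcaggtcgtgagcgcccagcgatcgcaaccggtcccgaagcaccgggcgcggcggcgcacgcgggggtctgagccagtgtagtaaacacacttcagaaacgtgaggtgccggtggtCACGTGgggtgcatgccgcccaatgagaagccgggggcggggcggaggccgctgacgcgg

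Most of the enzymes that make cholesterol were higher in CR females. All 21 genes of the list had a fold change above 0. Of them 14 were called higher and none lower (66.7% called, beside 5.40% of all genes). For 13 of the 14 the groups did not overlap, beside 465 of all 758 called genes and 6.28% of all genes tested. The median was 1.35 on the log2 scale, against -0.01 over all genes. Idi1, which isomerises isopentenyl diphosphate, rose the most in the list. It read 142, 352, 394, 322 and 208 in AL females and 1359 to 3194 in CR females (log2 fold change 2.94, adjusted p = 7.23e-06). Sqle, the squalene epoxidase, read 105, 156, 109, 109 and 116 in AL and 422 to 1168 in CR females, a rise of 2.63. Fdps, farnesyl diphosphate synthase, rose by 2.48, and Fdft1, which makes squalene, by 1.42. Of the enzymes that turn squalene into cholesterol, Lss rose by 2.06, Cyp51 by 2.00, Msmo1 by 1.64 and Dhcr7 by 1.35. Msmo1 was the called gene whose groups overlapped, and edgeR did not call it (adjusted p = 0.0511). Hmgcs1, HMG-CoA synthase, read 974 to 1550 in AL and 1342 to 2516 in CR females and was not called (log2 fold change 0.55, 95% interval -0.04 to 1.15).

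Of the 18 genes for sterol sensing and uptake, 5 rose and 1 fell (33.3% called, beside 5.40% of all genes). Stard4, a cholesterol carrier, rose by 1.83. Insig1 and Insig2, which hold the SREBP precursors in the ER, went opposite ways. Insig1 rose from 1309 to 2811 in AL to 3964 to 6139 in CR females (log2 fold change 1.30). Insig2 read 5984, 3461, 13165, 5876 and 11701 in AL and 1235 to 3197 in CR females, a log2 fold change of -1.88 (adjusted p = 0.000211). Srebf2, the SREBP that drives sterol genes, was not called (log2 fold change 0.29, 95% interval -0.02 to 0.61).

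The promoters of the cholesterol enzymes are shown because they held 1 motif in common. RefSeq promoters were found for 9 of the 14 called genes, and all 9 had the letters CCAAT, the motif of the factor NF-Y, on either strand within 250 bases before a start (Cyp51, Dhcr7, Idi1, Lss, Msmo1, Mvd, Mvk, Nsdhl and Sc5d). In the table as a whole 33.8% of windows held it, a share per window, while the 9 were counted by gene over all their starts. The sterol element TCACNCCAC was in none of the 9 and in 1.05% of all windows. Capitals mark CCAAT or its reverse complement in Idi1 (chr13:8885356-8885605, plus strand, 45 and 14 bases before the start), Lss (chr10:76531355-76531604, plus strand, 62 bases before) and Cyp51 (chr5:4104698-4104947, minus strand, 29 bases before).
Idi1: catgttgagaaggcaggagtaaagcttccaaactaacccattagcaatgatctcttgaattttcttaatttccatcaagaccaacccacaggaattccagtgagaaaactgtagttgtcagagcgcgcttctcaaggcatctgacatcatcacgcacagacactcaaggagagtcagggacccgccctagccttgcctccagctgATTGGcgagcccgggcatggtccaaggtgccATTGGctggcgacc
Lss: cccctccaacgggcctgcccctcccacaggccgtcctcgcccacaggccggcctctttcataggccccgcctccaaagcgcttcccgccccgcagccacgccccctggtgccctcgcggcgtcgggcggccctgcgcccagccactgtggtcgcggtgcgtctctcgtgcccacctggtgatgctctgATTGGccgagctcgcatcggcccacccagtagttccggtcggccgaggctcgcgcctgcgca
Cyp51: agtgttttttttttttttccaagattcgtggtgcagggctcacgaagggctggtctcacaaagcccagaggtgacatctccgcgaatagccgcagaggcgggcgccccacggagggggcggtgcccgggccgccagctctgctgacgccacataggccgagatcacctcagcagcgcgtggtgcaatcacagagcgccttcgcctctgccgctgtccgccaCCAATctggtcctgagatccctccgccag

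Transcripts of many fatty acid synthesis genes rose as well. Of 26 genes tested, 16 were called higher and none lower (61.5% called, beside 5.40% of all genes), and the median was 1.08 on the log2 scale. The groups did not overlap for 12 of the 16, beside 465 of all 758 called genes and 6.28% of all genes tested. In edgeR 10 of the 26 were called higher and 1 lower. Fasn, fatty acid synthase, read 4422, 4193, 5732, 3443 and 3522 in AL and 16204 to 62575 with a median of 29818 in CR females. All CR livers were above all AL livers, at a log2 fold change of 2.91 with an SE of 0.507 (adjusted p = 0.000581). Acaca, acetyl-CoA carboxylase, read 1720, 1562, 2343, 1414 and 1510 in AL and 6434 to 14721 in CR females, a rise of 2.31. Acly, which supplies cytosolic acetyl-CoA, spread from 3354 to 18828 in CR females and rose by 2.08. Its call was lost under 8 of 34 alternatives, 5 of them the loss of AL replicate 1, 3 or 5 or CR replicate 3 or 4. It was also lost without both libraries with pancreatic transcripts, which gave the largest adjusted p (0.0872). Elovl6, the elongase of saturated chains, showed the largest rise of the list. It read 1076, 840, 2261, 549 and 838 in AL and 6686 to 26016 in CR females (log2 fold change 3.63, adjusted p = 0.000114). Thrsp, a spot 14 protein tied to lipogenesis, rose by 2.92, and Me1, which makes NADPH, by 1.68 (adjusted p = 0.0503 in edgeR). Fads2, the delta-6 desaturase, rose by 1.53 from 9605 to 22499 in AL to 29147 to 49452 in CR females. Scd1, the stearoyl-CoA desaturase, was at 112298 to 491194 in AL and 360944 to 717641 in CR females, and its call at 1.29 was lost under 11 of 34 alternatives, with an adjusted p of up to 0.150.

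Srebf1, the SREBP of fatty acid synthesis, rose with an uneven spread. It read 1850, 3152, 755, 2222 and 1141 in AL females and 4614, 2894, 4726, 8022, 25360 and 5961 in CR replicates 1 to 6. CR replicate 2 was below the highest AL liver and CR replicate 5 was far above the rest (log2 fold change 2.01, adjusted p = 0.00603). Without AL replicate 1 and CR replicate 5 the log2 fold change was 1.66 and still called. Pnpla3, a lipid droplet hydrolase and SREBP target, read 66.6, 42.0, 78.3, 29.3 and 108 in AL and 211, 173, 123, 835, 2252 and 310 in CR females. The rise of 2.64 lost its call without those 2 libraries, and under 7 of 34 alternatives in all, among them the loss of CR replicate 4 or 5 or of AL replicate 2 or 4. Its paralogue Pnpla5 was near the detection limit in AL females, at 1.04, 0.954, 5.60, 2.02 and 10.4, and at 19.3 to 159 in CR females (log2 fold change 3.65). Mlxipl, which encodes ChREBP, a glucose-responsive activator of lipogenic genes, was not called (log2 fold change 0.25, 95% interval -0.18 to 0.68). CR replicates 4 and 5 gave the highest values of the CR group for Acly, Fasn, Elovl6, Thrsp, Srebf1, Pnpla3 and Pnpla5, and CR replicate 5 was also one of the 2 libraries with pancreatic transcripts, whose part in these values was not tested.

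**Figure D3:**
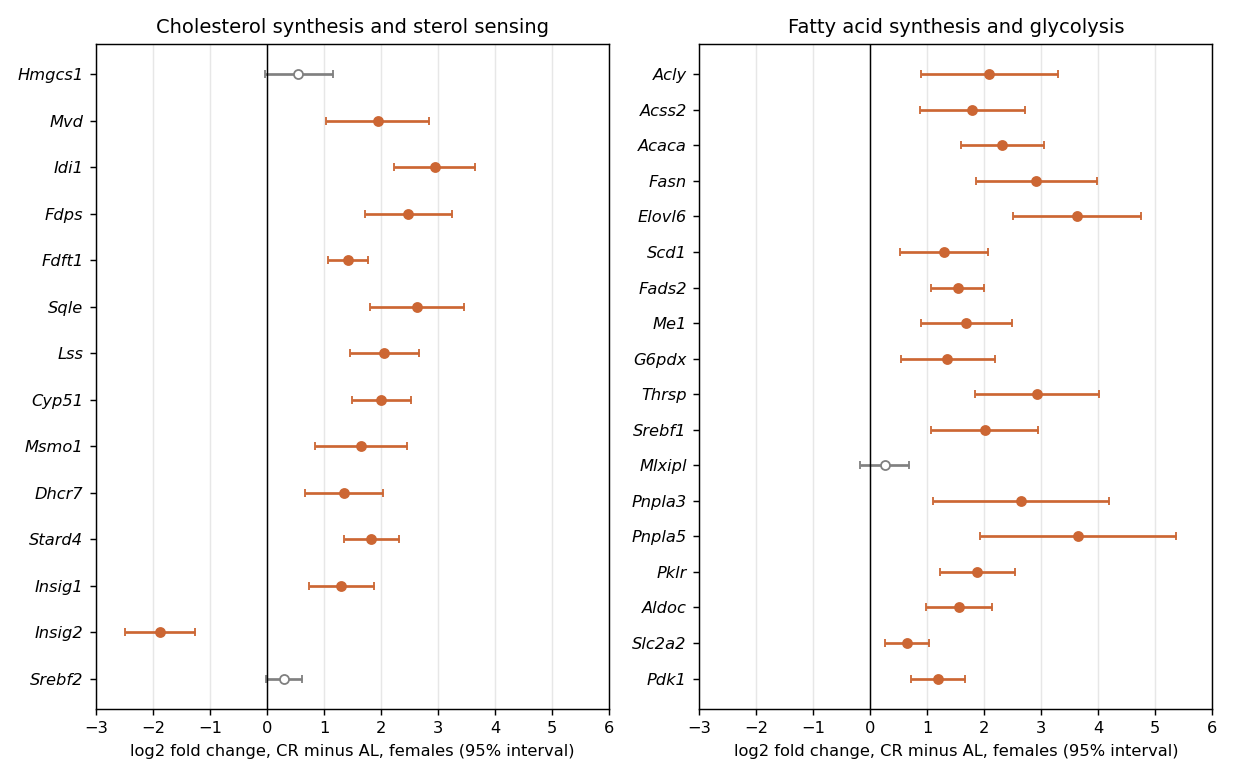
Points give the log2 fold change, CR minus AL females, with its 95% interval from limma for genes of cholesterol synthesis and sterol sensing (left) and of fatty acid synthesis and glycolysis (right). Filled orange points were called and open grey ones not, and of the genes drawn Insig2 alone lies below 0, at -1.88.

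Glycolysis had 3 called members of 19 (15.8%, beside 5.40% of all genes), all higher, among them Pklr, the liver pyruvate kinase, at 1758 to 4088 in AL and 8167 to 17043 in CR females (log2 fold change 1.88, adjusted p = 0.000406). Aldoc rose by 1.55 and the glucose transporter Slc2a2 by 0.65, the latter with overlapping groups and a call lost under 8 of 34 alternatives (adjusted p of up to 0.138). The glycogen list had 2 genes higher and 1 lower of 12 (25.0% called). Gys2, glycogen synthase, rose from 3503 to 5827 in AL to 8832 to 15501 in CR females (log2 fold change 1.47), and Gbe1, the branching enzyme, rose by 0.96. Ppp1r3c, which brings protein phosphatase to glycogen, read 1695, 1437, 1438, 1289 and 1915 in AL and 196 to 416 in CR females. The groups were wide apart, at a log2 fold change of -2.50 with an SE of 0.325 (adjusted p = 2.71e-05). Pdk1, a kinase that switches off pyruvate dehydrogenase, rose by 1.19 and was the 1 called gene of 24 for pyruvate dehydrogenase and the TCA cycle (4.17%, near the share of all genes).

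Genes that burn fat or make glucose were called at shares on either side of that of all genes. Of 26 genes of fatty acid beta-oxidation 1 was called (3.85%, beside 5.40% of all genes). Cpt1a, the gate of mitochondrial oxidation, read 11124 to 20094 in AL and 12663 to 19707 in CR females (log2 fold change 0.17, 95% interval -0.12 to 0.47). In the ketogenesis list of 7, Slc16a7, a monocarboxylate transporter, was called (14.3% of the list), with a rise of 0.79. Among the 19 PPAR-alpha targets outside beta-oxidation 2 rose (10.5%), the acyl-CoA thioesterases Acot3 (1.57) and Acot4 (1.15). Both overlap the same predicted gene on the genome. Ppara itself was not called (0.44, adjusted p = 0.109). Pdk4, Cyp4a14 and Fgf21 were not called, with log2 fold changes of 0.83, -0.91 and -0.57 and 95% intervals of -0.71 to 2.37, -1.85 to 0.04 and -1.65 to 0.50. Pck1, G6pc and Fbp1 of gluconeogenesis gave -0.10, -0.07 and 0.12, with 95% intervals of -0.66 to 0.46, -0.72 to 0.59 and -0.17 to 0.41. In the triglyceride list of 22 (9.09% called), Pnpla3 rose and Agpat2, which acylates lysophosphatidic acid, fell by 0.59.

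The largest rise of a called gene without overlap was in a sex-biased gene. Of 30 female-biased genes 7 rose and 2 fell, and of 26 male-biased genes 8 fell and none rose, which is 30.0% and 30.8% called, beside 5.40% of all genes. Sult2a3, a hydroxysteroid sulfotransferase, read 26.0, 2.86, 13.1, 0 and 15.6 in AL females and 54.6, 369.9, 290.9, 283, 345 and 74.1 in CR replicates 1 to 6. CR replicates 1 and 6 were the lowest of the CR group yet above all AL livers, and the log2 fold change was 4.64 ± 0.718 (SE, adjusted p = 0.000160). In its 5 called relatives CR replicates 1 and 6 were again the lowest of the CR group. Sult2a1 read 362, 107, 486, 28.3 and 403 in AL females and 623, 3080, 2526, 2429, 3816 and 552 in CR females (log2 fold change 3.20, adjusted p = 0.0139). Its call was lost without AL replicate 4, the AL liver with the lowest value (adjusted p = 0.0550). Sult2a2 rose by 2.88, Sult2a5 by 2.93, Sult2a4 by 2.64 and Sult2a6 by 2.60. Of the 8 Sult2a genes tested 6 were called higher. They lie close together and share much sequence, so reads may be split between them and the single genes are uncertain.

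Among the other female-biased genes, Cyp2a4, a steroid 15-alpha hydroxylase, read 9082, 21474, 27274, 14410 and 13615 in AL and 33355 to 92507 in CR females, a rise of 1.82 with groups apart. Fmo2, a flavin monooxygenase, read 1564 to 1881 in AL and 2307 to 3286 in CR females and rose by 0.71. The call of Fmo2 was lost without AL replicate 2 or 4 (adjusted p of up to 0.0558). Cux2, a repressor of male-biased genes in the female liver, varied from 435 to 1751 in AL and from 399 to 2680 in CR females (log2 fold change 0.46, 95% interval -0.61 to 1.52). A1bg was not called either (-1.39, adjusted p = 0.239), though it was called lower without AL replicate 1 and CR replicate 5, at -2.47. Acnat2, an acyltransferase of peroxisomes, fell by 1.36. Atp6v0d2, a proton pump subunit, fell by 1.45 with a call lost under 19 of 34 alternatives (adjusted p of up to 0.207). The fit without AL replicate 1 and CR replicate 5 was among them.

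Slco1a1, an organic anion transporter, was the male-biased gene with the largest fall. It read 609.4, 1943, 1587, 1801 and 1796 in AL females and 323, 36.6, 55.0, 64.7, 219 and 121 in CR females. The groups did not overlap, AL replicate 1 was low in its group, and the log2 fold change was -3.80 ± 0.501 (SE, adjusted p = 3.07e-05). The major urinary proteins, pheromone carriers made in liver, fell as well, with 15 of the 18 Mup genes tested called lower and a median of -2.25. Mup3 read 111343, 88816, 99429, 90104 and 143012 in AL and 31118 to 60234 in CR females (log2 fold change -1.20, adjusted p = 0.000951). Mup20 fell by 1.54, Mup1 by 2.47 and Mup17 by 2.84, with calls lost under 9, 8 and 15 of 34 alternatives and adjusted p of up to 0.0763, 0.0890 and 0.130. Of these genes, Mup20 lost its call without AL replicate 1 and CR replicate 5, the libraries with pancreatic transcripts. With the 11 female libraries alone in the fit, 9 of the 18 Mup genes were called lower. Mup genes are near-identical copies, so reads may be split among them. Susd4 fell by 1.23. Hsd3b5 read 2.08, 116, 157, 101 and 164 in AL and 3.93 to 86.7 in CR females and was not called (log2 fold change -2.02, adjusted p = 0.217). Under 2 of 34 alternatives Hsd3b5 was called lower, among them the fit without AL replicate 1, its lowest AL liver. Its log2 fold change ran from -3.33 to -1.67 over the alternatives. Cyp4a12a was not called either, at 5.20 to 14.3 in AL and 0.867 to 18.8 in CR females. CR replicate 1 had the highest value of the CR group for Slco1a1, Mup1, Mup17, Mup20, Hsd3b5 and Cyp4a12a. Igf1, the growth hormone target, stood at 9883 to 17866 in AL and 10206 to 15165 in CR females (log2 fold change -0.15, 95% interval -0.50 to 0.20). Of the 23 genes of the insulin, growth hormone and IGF axis 1 was called (4.35%, near the 5.40% of all genes), Trib3, an inhibitor of AKT, which fell by 1.45.

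**Figure D4:**
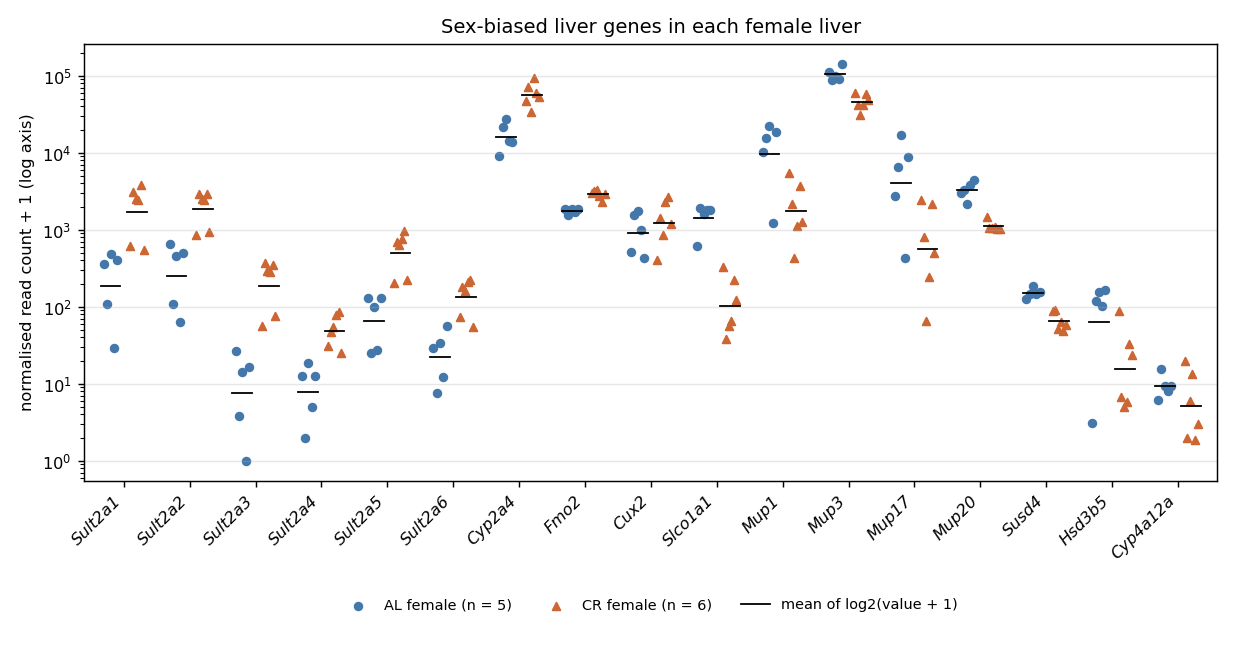
Each symbol is the normalised read count plus 1 (log axis) of a sex-biased gene in 1 female liver, blue circles for the 5 AL and orange triangles for the 6 CR females, with black bars at the mean of log2(value + 1). For Sult2a1 and Sult2a3 the triangles lie above the circles with CR replicates 1 and 6 lowest, and for Slco1a1, Mup3, Mup20 and Susd4 all triangles lie below the circles.

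The effect of CR was called different between females and males for 34 genes (0.242% of the 14035 tested), more positive in females for 20 and more negative for 14. DESeq2 called 85 and the fit with the replicate number as a block 19. Of these 34, 7 were called in females. Sult2a3, Sult2a5 and Sult2a2 differed by 5.11, 4.28 and 4.70 on the log2 scale (adjusted p = 0.0246, 0.0232 and 0.0327), beside effects in males of -0.46, -1.34 and -1.81, none of them called. All 3 genes were near 0 in males, at up to 5.89, 9.04 and 20.6 normalised counts in AL and up to 0, 1.95 and 2.03 in CR males, so their male effects are at the detection floor and give no direction. These 3 differences were called in 25, 26 and 18 of 33 alternative settings. Sult2a1 differed by 5.08, which was not called (adjusted p = 0.0633). Paqr7, a membrane progesterone receptor, read 673, 963, 912, 492 and 669 in AL and 1388 to 1994 in CR females, a rise of 1.15, while its effect in males was -0.31. That difference of 1.46 was called in all 33 alternatives (adjusted p = 0.00452). Fmo2 rose in both sexes but less in females, by 0.71 against 3.22. The other genes named here were not called in females. Selenbp2 had a female effect of 0.21 against -2.32 in males, Trim24 0.02 against 1.43, Cyp17a1, which makes androgen precursors, -0.02 against 2.19, Cyp2c38 -0.09 against 2.26, and Cyp2b9 -0.30 against 6.32. Pitx3 was at 0 to 3.95 in all female livers and at 0 to 2.93 in CR males, against a median of 209 and up to 326 in AL males, so its female effect is at the detection floor and its difference by sex says nothing of females. It overlaps Elovl3 on the genome.

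**Figure D5:**
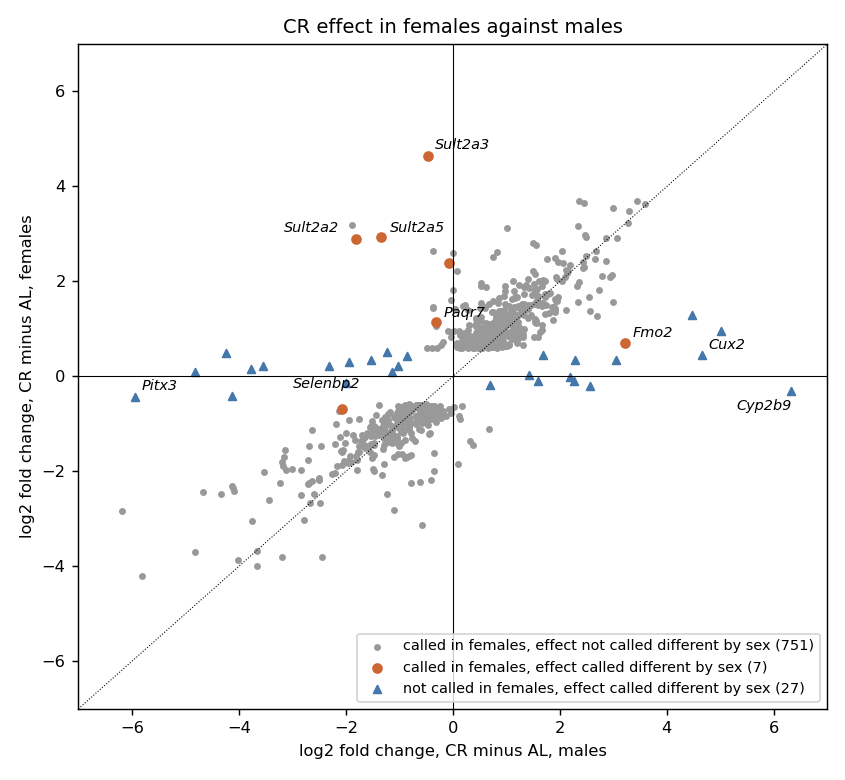
Points give the log2 fold change with CR in females (vertical) against males (horizontal) for genes called in females (grey, 751), called in females with an effect called different between the sexes (orange, 7), or called different but not called in females (blue triangles, 27), with a dotted line of equal effect. Sult2a2, Sult2a3 and Sult2a5 lie above 0 in females, with male effects that rest on counts near 0, and Cyp2b9 lies at 6.32 in males and -0.30 in females.

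Some enzymes of drug metabolism rose and others fell. Of 32 genes of the CAR and PXR receptors and phase I enzymes 3 rose and 3 fell (18.8% called, beside 5.40% of all genes). Cyp2a5, the coumarin hydroxylase, read 21955, 17299, 8262, 7141 and 16305 in AL and 36949 to 68454 in CR females (log2 fold change 2.01, adjusted p = 0.000145). Cyp2a5 and Cyp2a4 are near-identical copies whose reads may be split. Cyp2c54 read 2481, 6027, 1822, 3945 and 5184 in AL and 204 to 1225 in CR females, with groups apart and a fall of 2.48. Cyp2f2, a P450 and periportal marker, fell by 1.27. Cyp2b10, the classical CAR target, was at 59.2 to 334 in AL and 29.9 to 170 in CR females and was not called (-0.97, adjusted p = 0.359). Of 34 phase II enzymes and transporters 8 rose and 1 fell (26.5% called). The efflux pump Abcb1a rose the most, from 128, 115, 84.9, 108 and 76.1 in AL to 294 to 699 in CR females, at a log2 fold change of 2.13 with an SE of 0.194 (adjusted p = 4.41e-07). Abcc4, another efflux pump, rose by 1.02, and Gstt2, a glutathione transferase, by 0.98.

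Bile acid synthesis had 1 gene higher and 4 lower of 21 (23.8% called, beside 5.40% of all genes). Cyp8b1, which sets the share of cholic acid, read 8185, 12221, 17279, 10163 and 13319 in AL and 1905 to 4720 in CR females, without overlap (log2 fold change -1.98, adjusted p = 0.00812). Hsd3b7, the second enzyme of the pathway, read 10332, 16171, 10675, 12363 and 12491 in AL and 3275 to 5951 in CR females, a log2 fold change of -1.55 with an SE of 0.144 (adjusted p = 4.41e-07). Baat, which conjugates bile acids, fell by 0.64 and Abcb11, the bile salt export pump, by 0.65. The call of Baat was lost without AL replicate 5, where the log2 fold change was under the threshold. Cyp7a1, the rate-limiting enzyme, read 292, 1273, 642, 1265 and 952 in AL and 262 to 3141 in CR females, with CR replicate 5 highest, and was not called (log2 fold change 0.05, 95% interval -1.26 to 1.36). Slc51b, a subunit of the basolateral bile acid exporter, rose by 1.37 from low counts, 3.12 to 24.2 in AL and 16.4 to 51.2 in CR females. Its call was lost under 10 of 33 alternatives, with the largest adjusted p (0.14) without AL replicate 1 and CR replicate 5.

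Some genes that break down amino acids and methyl donors fell. Of 25 genes of amino acid catabolism 5 fell (3 in edgeR) and none rose, with a median of -0.30, and of 18 genes of one-carbon metabolism and transsulfuration 6 fell and 1 rose, with a median of -0.39. Bhmt, which methylates homocysteine from betaine, read 49688, 49410, 90207, 98124 and 134106 in AL and 6783 to 29117 with a median of 10510 in CR females. All CR livers were below all AL livers, at a log2 fold change of -2.61 with an SE of 0.400 (adjusted p = 0.000151). Cbs and Cth, the 2 steps from homocysteine to cysteine, fell by 1.35 and 1.20, and Cdo1, which oxidises cysteine, by 0.88. Nnmt, which methylates nicotinamide, fell by 0.84, with a call lost under 10 of 34 alternatives (adjusted p of up to 0.112). The fit without AL replicate 1 and CR replicate 5 was among them. Mthfd1l, which makes formate in mitochondria, was the member that rose, from 12.5, 22.9, 13.1, 42.4 and 17.7 in AL to 66.2 to 117 in CR females (log2 fold change 2.11). Gldc, the glycine decarboxylase, fell by 1.45, Agxt, which removes glyoxylate, by 1.40, Kynu of tryptophan breakdown by 1.12, and the histidine enzymes Hal and Amdhd1 by 1.06 and 0.72. Hal was not called in edgeR (adjusted p = 0.0614). Amdhd1 fell short of the fold threshold under 3 of 34 alternatives. Kynu was tight within groups, at 3679 to 4952 in AL and 1752 to 2678 in CR females (adjusted p = 8.64e-07). In the urea cycle list of 11, only the ornithine carrier Slc25a15 was called (9.09%, beside 5.40% of all genes), with a fall of 0.71.

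Of 17 glucocorticoid targets 4 fell and 1 rose (29.4% called, beside 5.40% of all genes). Cdkn1a, which encodes the cell cycle inhibitor p21, read 4605, 457, 3936, 4277 and 3321 in AL and 86.9 to 397 with a median of 174 in CR females. AL replicate 2 was near the CR livers and the groups still did not overlap, at a log2 fold change of -3.81 with an SE of 0.650 (adjusted p = 0.000457). Mt1 and Mt2, the metallothioneins, which bind zinc, fell by 2.19 and 2.82. Mt2 read 25226, 7963, 10537, 13164 and 10348 in AL and 682 to 3101 in CR females (adjusted p = 0.00150). Serpina6, the corticosteroid-binding globulin, read 18063, 12585, 8653, 14581 and 9985 in AL and 22433 to 42843 in CR females, a rise of 1.39. Klf9 fell by 1.00 with overlapping groups, and the call was lost under 13 of 34 alternatives, including the fit without AL replicate 1 and CR replicate 5 (adjusted p = 0.153). Fkbp5, a sensitive target of the receptor, was not called (-0.50, adjusted p = 0.336).

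Other lists held 1 to 4 called genes each. In the cell cycle list of 26, 4 rose (15.4%, beside 5.40% of all genes), among them Ccne1 (cyclin E1), at 7.46 to 19.8 in AL and 23.6 to 59.8 in CR females (log2 fold change 1.39). Its call was lost without AL replicate 3 (adjusted p = 0.0687). Gadd45a, a stress gene of that list, rose by 1.42 with a call lost under 18 of 33 alternatives. Its adjusted p was largest (0.165) without AL replicate 1 and CR replicate 5. Of 19 cytosolic chaperones 2 rose (10.5%), Hspa1a and Hspa1b, the inducible HSP70 copies, by 1.34 and 1.38. The groups of Hspa1a overlapped. The call of Hspa1b was lost without AL replicate 2 or 4 and in edgeR (adjusted p of up to 0.0597). The acute phase (7.69% called), sphingolipid (4.00%), apolipoprotein (4.76%), immediate early (7.69%) and ATF4 (7.14%) lists were near the share of all genes. Of 26 acute phase genes 1 rose, Cxcl1 by 1.53 with a call lost under 22 of 34 alternatives, and 1 fell, Lbp by 0.89. The call of Lbp was lost without AL replicate 1 and CR replicate 5. Saa1 was not called (-0.27, adjusted p = 0.800). In the sphingolipid list of 25, Ugcg, glucosylceramide synthase, rose by 0.69, and its call was lost without AL replicate 4 or CR replicate 6 and in edgeR (adjusted p of up to 0.0739). Pltp rose among 21 apolipoprotein genes by 1.40, Ier3 among 13 immediate early genes by 1.59, and Atf5 fell among 14 ATF4 targets by 1.12. Of 13 secreted factors Tsku rose by 1.45 and Enho, which encodes adropin, fell by 1.47 (15.4% called). Tsku lost its call in edgeR and without AL replicate 1 and CR replicate 5, and Enho with only the 11 female libraries in the fit.

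Outside the lists, Chrna4, a nicotinic receptor subunit, was among the 10 largest rises without overlap, from 58.2, 21.95, 349.7, 74.7 and 130 in AL to 480 to 1774 in CR females (log2 fold change 3.23, adjusted p = 0.0549 in edgeR). The 10 largest falls without overlap held 5 predicted genes of unknown role, Gm30959, Gm34911, Gm3734, Gm34490 and Gm11454. Gm30959 read 33.3, 64.9, 186.5, 162.6 and 121 in AL and 1.93 to 7.81 in CR females, a log2 fold change of -4.20 with an SE of 0.448 (adjusted p = 2.28e-06). Gm3734 fell by 3.70, from 180 to 436 in AL to 6.74 to 96.1 in CR females. Gm34911 read 6.68 to 52.2 in AL and 0 to 0.983 in CR females, which is at most 1 read, and Gm34490 and Gm11454 were at 0 to 4.82 and 0 to 1.98 with CR. Plppr1, a phospholipid phosphatase-related membrane protein, read 63.4, 60.1, 102, 44.4 and 36.5 in AL and 0.942 to 13.8 in CR females (log2 fold change -3.12).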

How the data were processed

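RNA-seq of 22 livers was used, 11 of them female, 1 library per mouse. The authors trimmed reads with Trim Galore, aligned them to mm10 with STAR 2.7.10a, counted them per gene with featureCounts (Subread 1.5.2) and divided the counts by DESeq2 1.36.0 size factors. Chromosome Y genes, Xist, repeated rows and genes with few reads were removed before deposit. The unit of the deposited values is thus a signal, the normalised read count of 16838 genes. The use of strand in counting was not stated, so values of overlapping genes are uncertain. Samples were grouped by the sex and diet in the labels. Replicate numbers only name mice.

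limma 3.58.1 in R 4.3.3 was run on log2(value + 1) for all 22 libraries in 4 groups with a variance trend, after a filter at a mean of 10 that kept 14035 genes, with Benjamini-Hochberg adjustment over all of those. Calls needed both a change of more than 1.5-fold and adjusted p under 0.05. The difference between the sexes was the interaction term. Whole reads were recovered in 21 libraries (100% of values within 0.01), which entered edgeR 4.0.16 and DESeq2 1.42.0 as alternatives. AL female replicate 4 was left out of these because 1 read there is worth 1.01 normalised counts, too near 1 for the recovery to be checked, although its values were whole by the same measure. Alternatives, compared in the closing section, were pseudocounts of 0.25 and 5, no filter, a mean of at least 50, only the 11 female libraries, leaving out both libraries with pancreatic transcripts, an acinar covariate, TMM, quantile normalisation, no minimum fold, the replicate number as a block and leaving out each library in turn. The scripts were tested on simulated data. The p-values measure the spread between mice.

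Genes named were the 10 called genes of largest fold change in each direction without overlap between groups, called members of each list and the main genes of each list, and the leading genes of the sex difference. Other genes named were chosen after their values were seen. The members, the 38 gene lists and the 16 marker lists were chosen with earlier results of these data known. Values are given for 143 genes, and some genes that the rule names are not reported here. Coordinates and promoters are RefSeq's for GRCm38.p6, the build of mm10, and 15750 symbols matched. Intervals are 95%. No column was left out.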

Additional observations from a re-analysis of the deposited data

Results flagged for a closer look

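Values in 1 library stood apart from the rest of its group, by the gap to the nearest other value set against the range of the group, in 23 of 286 groups of values examined (143 genes, AL and CR females, 8.04%). The limit is set so that chance gives about 1 in 20 for normally distributed values, but these counts are skewed and some genes were chosen after their values were seen. AL replicate 2 was apart in 5 of them, at 447 normalised counts for Per3, 1974 for Dbp, 156 for Sqle, 913 for Stard4 and 46.8 for Gadd45a, each time as the highest AL liver. CR replicate 5 was apart in 5, with 630 for Mvd, 25360 for Srebf1, 2252 for Pnpla3, 1559 for A1bg and 3141 for Cyp7a1, also each time the highest of its group. CR replicate 4 was highest for Dbp (3670), Acaca (14721) and Me1 (24747). AL replicate 3 was highest for G6pdx (974), Ppara (10172) and Gm34490 (113). CR replicate 1 was highest for Mup20 (1466) and Hsd3b5 (86.7), and CR replicate 3 for Atp6v0d2 (313) and Cth (8546). AL replicate 4 was highest for Hal (19549), CR replicate 2 for Gm34490 (4.82), and AL replicate 1 lowest for Slco1a1 (609.4).

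The effect of CR differed between the sexes, by the interaction term of limma, for 13 of the 143 genes. The difference, females minus males on the log2 scale, was positive for Sult2a2 (4.70), Sult2a3 (5.11), Sult2a5 (4.28), Paqr7 (1.46), Selenbp2 (2.53) and Pitx3 (5.51), of which the 3 Sult2a genes were near 0 in males and Pitx3 in females, so that these 4 differences rest on 1 sex. It was negative for Cyp2b9 (-6.62), Fmo2 (-2.51), Cux2 (-4.19), Trim24 (-1.40), Cyp17a1 (-2.20), Cyp2c38 (-2.36) and Cers6 (-1.24). Cers6 lost this call under 16 of 33 alternatives, as 17 kept it.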

How the results depend on the processing

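Over the alternatives that kept the fold threshold, the number of genes called between CR and AL females ran from 602 (edgeR) to 813 (without both libraries with pancreatic transcripts), and from 606 to 819 when single libraries were left out. Those called higher then ran from 352 to 470, those called lower from 254 to 353, and those with a CR effect that differed by sex from 26 to 48. With no minimum fold change 1234 genes were called, 577 of them lower. DESeq2 gave 85 genes with an effect that differed by sex and the replicate block 19, against 34, and the cause was not tested. Replicate numbers do not pair these mice: deviations of same-numbered AL and CR females correlated at -0.135 to 0.167, and no AL female correlated best with its own number. The replicate block called 653 genes. Of 110 called genes described, 81 kept their call under every setting run for them (33 or 34), 29 lost it under at least 1, and none changed sign.

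Among genes not called, the sign turned for several. Without both libraries with pancreatic transcripts the log2 fold change was -0.02 for Trim24, 0.07 for Cyp17a1, 0.07 for Cyp2c38, 0.04 for Pck1 and -0.70 for Cyp7a1. Quantile normalisation gave 0.04 for Cyp17a1 and 0.19 for Pck1. The replicate block gave 0.03 for Cyp17a1, 0.01 for G6pc and -0.13 for Cyp7a1. edgeR gave -0.03 for Trim24 and 0.04 for Pck1, and DESeq2 -0.03 and 0.05. With single libraries left out Cyp17a1 ran from -0.15 to 0.14, Cyp7a1 from -0.34 to 0.37, G6pc from -0.27 to 0.11, Pck1 from -0.28 to 0.06 and Trim24 from -0.07 to 0.10.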

Other observations

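A pair of vitamin B6 genes, chosen after their values were seen, rose in CR females. Pdxk, the kinase that activates vitamin B6, read 805, 982, 794, 693 and 728 in AL and 1999 to 2200 with a median of 2064 in CR females. The groups did not overlap, at a log2 fold change of 1.39 with an SE of 0.103 (adjusted p = 1.69e-08 in limma). Pdxp, the phosphatase that acts the other way, read 6.24, 9.54, 6.53, 7.07 and 11.5 in AL and 41.5 to 88.5 in CR females, a log2 fold change of 2.82 (adjusted p = 1.66e-07). Pdxp overlaps Gm30368. Ak4, an adenylate kinase of mitochondria chosen in the same way, read 964, 921, 710, 816 and 836 in AL and 2380 to 4673 in CR females (log2 fold change 2.03, adjusted p = 7.59e-10).

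With the 500 most variable genes, the first principal component of the 11 female libraries held 47.4% of the variance, and acinar genes made up 66.2% of its squared loadings. With those genes left out, the second component (26.8%) put all 5 AL females below 0, at -28.5 to -11.5, and all 6 CR females above 0, at 3.06 to 23.8, and the first (30.3%) was lowest in CR replicate 6, at -40.6.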
